A study of Caenorhabditis elegans with 2 samples.

Results

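Hox genes encode homeodomain transcription factors that give cells their identity along the head-to-tail axis. In C. elegans they are few and loosely grouped. Hox proteins bind DNA together with cofactors of the TALE homeodomain class, which are the PBC proteins, related to mammalian Pbx, and the Meis proteins. The 10 genes described here are the 6 Hox genes ceh-13, lin-39, mab-5, egl-5, php-3 and nob-1, the PBC genes ceh-20, ceh-40 and ceh-60, and the Meis gene unc-62. They were taken by name and not by a cutoff on any measured value, though with earlier results of these data known. All 10 were found among the 19973 nuclear protein-coding genes of the annotation.

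The data are sites of ZTF-11, a zinc finger transcription factor of the Myt1 family that acts in neurogenesis, found by chromatin immunoprecipitation and sequencing (ChIP-seq). Both libraries came from strain OP236, which has the unc-119(ed3) III mutation and the integrated transgene wgIs236, the source of eGFP-tagged ZTF-11. The material was whole embryos of mixed stages and both sexes, of unknown age, and the labels do not say whether the strain keeps an untagged ztf-11 gene. The design held 1 group with 2 biological replicates and no second condition. In whole embryos, strong binding in few cells and weak binding in many cannot be told apart, and a binding assay does not show whether the tissue's marker genes were expressed.

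Peaks were used on the ce11 build from 4 lists. Each replicate has a relaxed list of 30000 peaks that includes background. A pooled relaxed list of 12024 peaks was made from both replicates. The thresholded list holds 721 of its peaks and was made with a measure of reproducibility between replicates. Signal is the authors' own value for a peak, on a scale that is not stated, so it is compared only within a list. Its median was 15.4 in the pooled list, 8.04 in replicate 1 and 5.83 in replicate 2, and the lowest signal in the thresholded list was 33.9. Rank 1 is the strongest peak of a list. The gene window reached from 5 kb upstream of the outermost 5′ end of a gene to its 3′ end, and the promoter window from 1000 bp upstream to 200 bp downstream of any protein-coding transcript's 5′ end. The read depth is unknown, and with 1 group and no counts there was no test, so all counts below are descriptions, and counts of genes with a summit are read against the same share over all protein-coding genes.

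Among these genes the clearest ZTF-11 peak lay upstream of ceh-20, and the largest number of weaker peaks lay along unc-62. The sequences shown are the 101 bp centred on the 2 strongest pooled summits upstream of ceh-20, on the pooled summit upstream of ceh-13, which was the strongest at any Hox gene, and on the strongest intronic summit of unc-62 that lies clear of untranslated regions. All are from the RefSeq sequence of WBcel235, which has the ce11 coordinates, on the plus strand. Capitals mark any match, on either strand, to 6 short patterns. These are AAGTT and AAAGTTT of the Myt1 family, TGATNNAT of Hox proteins with PBC partners, TGACAG of Meis proteins, TTTGAA or TTCGAA of cell cycle promoters, and GAGAG. Every AAAGTTT also holds AAGTT.
ceh-20, stronger summit, chrIII:6978940-6979040: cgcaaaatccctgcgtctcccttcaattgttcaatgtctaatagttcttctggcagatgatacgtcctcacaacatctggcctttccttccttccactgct
ceh-20, weaker summit, chrIII:6979141-6979241: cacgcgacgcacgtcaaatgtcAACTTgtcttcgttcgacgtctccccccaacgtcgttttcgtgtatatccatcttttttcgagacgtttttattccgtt
ceh-13, promoter summit, chrIII:7554863-7554963: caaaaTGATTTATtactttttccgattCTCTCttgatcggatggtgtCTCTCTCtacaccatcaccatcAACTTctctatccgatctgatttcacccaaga
unc-62, intronic summit, chrV:4506450-4506550: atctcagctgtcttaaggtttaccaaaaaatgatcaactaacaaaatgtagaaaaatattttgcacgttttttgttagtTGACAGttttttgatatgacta

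The stronger ceh-20 window held none of the 6 patterns, and the weaker one held a single AAGTT on the minus strand. The ceh-13 window held TGATNNAT, AAGTT and GAGAG, the last at 3 places of which 2 overlap. The unc-62 window held TGACAG. GC content was 46.5% in both ceh-20 windows, 39.6% at ceh-13 and 27.7% at unc-62.

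Over the whole set, 1 of 10 genes had a thresholded summit in the gene window, where 5.98% of all protein-coding genes had one. In the promoter window it was also 1 of 10, against 2.65% of all genes. That gene was ceh-20 in both cases. The pooled list put a summit in the gene window of 7 of the 10, against 55.2% of all genes, and in the promoter window of 3 of the 10, against 22.4%. Those 3 were ceh-13, ceh-20 and unc-62. The last has 15 different 5′ ends and so many promoter windows, and its pooled promoter summits all lay at internal 5′ ends. The gene windows of these genes had a median length of 9931 bp, longer than the 7027 bp over all protein-coding genes, which raises the number of summits a window can hold. With so few genes, none of these shares can be read as a property of the set.

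In the relaxed list of each replicate alone, all 10 genes had at least 1 summit in the gene window, in lists that reached 85.6% of all genes in replicate 1 and 85.8% in replicate 2. In the promoter window replicate 1 had a summit at 4 of the 10 (41.5% of all genes) and replicate 2 at 6 of the 10 (41.9%). The 4 genes of replicate 1 were ceh-13, lin-39, ceh-20 and unc-62, and replicate 2 had these 4 together with nob-1 and ceh-40. The shares in the gene window leave little room above that background, so the values and positions of the peaks are given gene by gene.

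**Figure D1:**
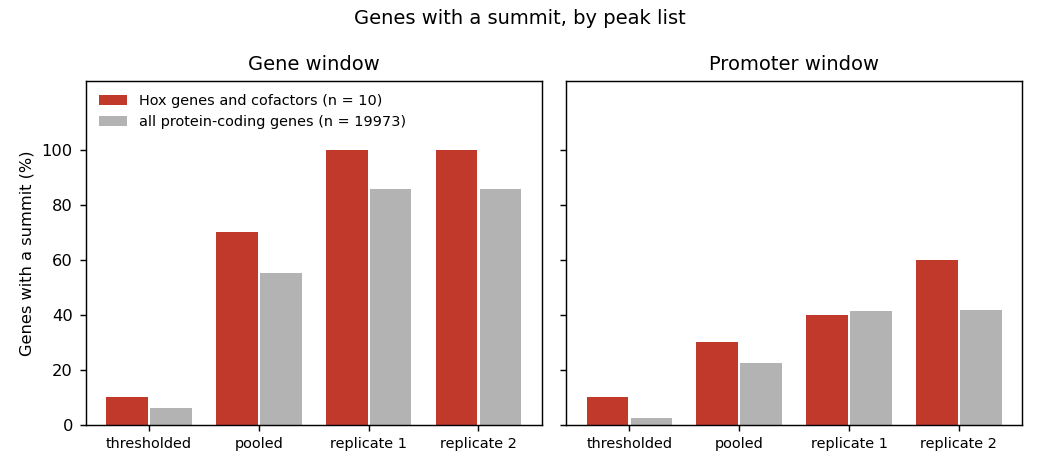
Share of genes with a summit in the gene window (left) and the promoter window (right), in percent, by peak list. Red bars are the 10 Hox and cofactor genes and grey bars all 19973 protein-coding genes. In the thresholded list 1 of 10 genes is marked, and in both replicate lists the gene window bars reach all 10.

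ceh-20 encodes the PBC protein that is the main partner of Hox proteins in C. elegans, in body axis patterning and in the mesoderm. The gene lies on chromosome III at 6979884 to 6981785, on the plus strand, 547 kb from lin-39. Its thresholded peak at 6978812 to 6979167 had its summit in intergenic DNA, 894 bp upstream of the 5′ end. The signal was 39.7, which was rank 508 of the 721 thresholded peaks and lay below their median of 46.4. No other gene's promoter window covered this summit, and the nearest 5′ end was that of ceh-20 itself. No non-coding gene lay within 250 bp of it.

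A second pooled peak with a signal of 28.5 (rank 1052) had its summit 201 bp closer to the gene, 693 bp upstream, and was not in the thresholded list. Its −log10 q-value was 1.1, against 2.3 for the thresholded peak and a minimum of 1.87 over that list. Replicate 1 also had a pair of summits here, 7 and 5 bp from the pooled ones, with signals of 19.4 (rank 787) and 12 (rank 4086). Replicate 2 had a single summit between them, 783 bp upstream, with a signal of 26.1 (rank 281), 111 bp from the stronger pooled summit and 90 bp from the weaker. Both replicates therefore placed a strong peak in the same stretch, as 2 summits in one library and as 1 in the other. Among only the 721 strongest peaks of a single library, ceh-20 was present in replicate 2 but not in replicate 1, where unc-62 was the 1 gene of the set instead. With a narrower promoter window, 500 bp upstream to 100 bp downstream, ceh-20 had no thresholded or pooled promoter summit.

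The remaining signal at ceh-20 was low. A pooled summit 1635 bp upstream had a signal of 13.2 (rank 9852), with an overlapping peak of 5.40 in replicate 2 and none in replicate 1. In replicate 2 alone a summit of 7.61 (rank 7527) lay 472 bp into the gene in a coding exon, and a further one of 3.97 (rank 29991) lay 146 bp upstream.

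The protein-coding genes most like ceh-20 in the ranks of their strongest thresholded promoter peak were rps-24, sto-4 and tsp-21. Likeness was the Euclidean distance over the log10 rank in the pooled list and in each replicate, among 528 other genes with such a peak. The ranks were 568, 771 and 337 for rps-24 in the pooled list, replicate 1 and replicate 2. They were 430, 756 and 320 for sto-4, and 445, 629 and 346 for tsp-21. The distances were 0.0931, 0.0934 and 0.145.

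unc-62 encodes the Meis-class cofactor, related to Drosophila homothorax, which acts with ceh-20 in embryonic patterning. It is the longest of these genes, at chromosome V, 4497461 to 4511449, with 18 protein-coding transcripts that start at 15 different 5′ ends. It had no thresholded summit and 11 pooled summits, 2 upstream and 9 inside the gene. Their signals ran from 13.1 to 24.3 with a median of 17.5, and 9 of the 11 were at or above the median of the pooled list. By annotation 4 were in introns, 2 in coding exons, 2 in a 5′ UTR and 1 in the 3′ UTR of at least 1 transcript, and 2 were intergenic.

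Among all protein-coding genes 28 (0.140%) had at least 11 pooled summits in the gene window. The unc-62 window is 19.0 kb long, however, and among the 494 gene windows of at least that length 25 (5.06%) had as many, with a median of 3.00. Pooled summits at unc-62 were thus more numerous than in most windows of its length, and this was not tested.

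The strongest unc-62 summit lay 8005 bp inside the gene at 4505466, in a coding exon, with a pooled signal of 24.3 (rank 1497). In replicate 1 its overlapping peak had a signal of 22.7 and rank 529, which is among the 721 strongest of that library. Replicate 2 had no overlapping peak, and its nearest summit was 1054 bp away with a signal of 7.50 (rank 7887). The next summit, 237 bp further on (pooled 17.9, rank 3635), likewise had no peak in replicate 2. The pooled value at this site thus came with a strong peak in one library only.

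Other unc-62 summits had peaks in both libraries, 7 of the 11. At 4507983, inside the gene, the pooled signal was 22.1 (rank 1939), with 13.1 in replicate 1 and 7.66 in replicate 2. The intronic summit shown above at 4506500 had 20.8 in the pooled list (rank 2309), 13.2 in replicate 1 and 7.50 in replicate 2. This summit lay 704 bp upstream of an internal 5′ end and so in a promoter window of unc-62. At 4503780, 181 bp upstream of another internal 5′ end, the values were 17.5 (rank 3879), 14.1 and 6.82.

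In the pooled list, the promoter summit closest to a 5′ end of unc-62, at 4499240, lay 87 bp upstream of an internal start. Its pooled signal was 17.3 (rank 4043). Its replicate values were 6.50 (rank 24365) and 8.39 (rank 5621). Upstream of the outermost 5′ end, overlapping summits 2174 and 1950 bp away had pooled signals of 14.1 and 16, and their strongest overlapping peaks were 8.10 in replicate 1 and 7.98 in replicate 2. The summit at 4511186, in the 3′ UTR, had a pooled signal of 15.4 and a replicate 2 peak of 9.53, the strongest unc-62 peak of that library (rank 3721), but no replicate 1 peak. It lay nearer to the 5′ end of T28F12.1, 1847 bp away, than to any 5′ end of unc-62.

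**Figure D2:**
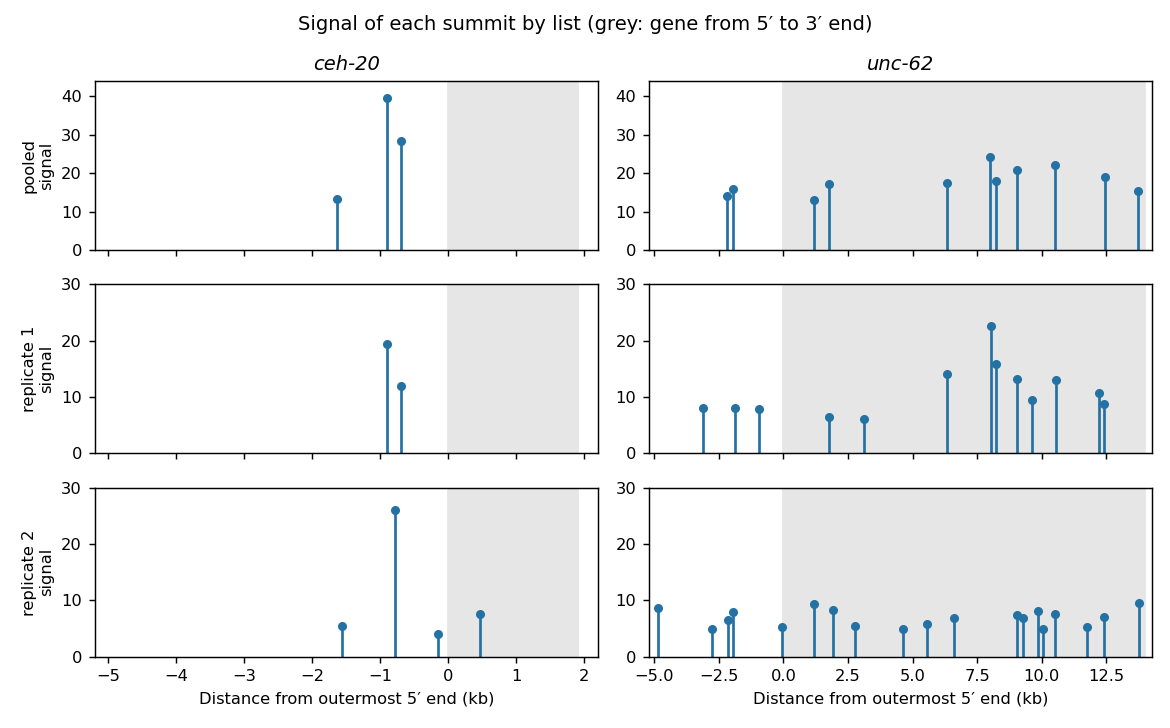
Signal of every summit in the gene windows of ceh-20 (left) and unc-62 (right) in the pooled list and in each replicate, against distance from the outermost 5′ end in kb. Grey marks the gene. At ceh-20 the same stretch is highest in all 3 lists, and at unc-62 the replicate 1 peak of 22.7 has no counterpart in replicate 2.

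The other PBC genes had weak peaks. ceh-40, the PBC gene with a role that overlaps that of ceh-20 in the embryo, lies on X at 12318126 to 12320777. Its pooled summit 231 bp inside the gene, in an intron, had a signal of 15.3 (rank 6080), with 10.7 in replicate 2 (rank 2613) and 5.82 in replicate 1 (rank 29805). It fell just outside the promoter window, whereas the replicate 2 summit, 195 bp into the gene, fell inside it. Replicate 2 also had a summit of 4.49 (rank 24889) 8 bp upstream, in the promoter windows of ceh-40 and F17A2.13. A second pooled summit of 13.1 (rank 10187), also intronic, had a peak of 5.92 in replicate 1 and none in replicate 2. The replicate 1 summits of 9.47 and 8.95 further upstream lay in introns of the neighbouring gene srd-40, the first of them within 250 bp of the non-coding gene F17A2.15.

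ceh-60, a PBC gene that with unc-62 regulates yolk protein genes in the adult intestine, lies on X at 6522596 to 6530146. Its pooled summit with the higher signal, 19.4 (rank 2820), was 3717 bp upstream and inside an intron of ilys-5, an invertebrate-type lysozyme gene whose 5′ end was nearer, at 2207 bp. Replicate 1 had a peak of 11.8 there (rank 4325) and replicate 2 none. The strongest replicate 1 summit in the window, 14.9 (rank 1853), also lay in an intron of ilys-5 and overlapped no pooled peak. Inside ceh-60 itself a coding exon summit of 14.8 (rank 6746) had a replicate 2 peak of 7.40 and none in replicate 1. No summit of ceh-60 had peaks in both libraries.

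The 6 Hox genes had no thresholded summit in the gene window (5.98% of all genes had one) and 4 pooled summits in all, at 3 of the 6 genes (55.2% of all genes). ceh-13, the labial-class gene that acts in the anterior embryo, had the strongest. Its peak at chromosome III, 7554735 to 7555090, had the summit 747 bp upstream of the 5′ end with a pooled signal of 21.6 (rank 2075). The overlapping peaks had signals of 11.9 in replicate 1 (rank 4242) and 12.3 in replicate 2 (rank 1730). These replicate summits lay 755 and 888 bp upstream. Replicate 2 had a second, weaker summit 644 bp upstream (5.50, rank 17053), which was the nearer of its summits to the pooled one, at 103 bp. Both libraries thus had summits in the promoter window, at positions that differed between them. The −log10 q-value of the pooled peak was 0.43, far below the thresholded minimum.

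lin-39, the gene of the mid-body that acts in the vulva and in ventral neurons, had pooled summits in an intron and upstream. The intronic summit had a signal of 14.9 (rank 6661), with 8.61 in replicate 1 and 8.19 in replicate 2. The upstream summit, 3363 bp away, had 12.4 (rank 11893), near the lowest signal of the pooled list of 12.3, with 11.8 in replicate 1 (rank 4311) and none in replicate 2. Promoter summits occurred in each replicate alone, at 8.98 in replicate 1, 248 bp upstream, and at 6.55 in replicate 2, 151 bp upstream of the internal 5′ end. The first of these lay inside the non-coding genes C07H6.12 and C07H6.16.

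egl-5, the Abdominal-B-class gene of the tail, had a single pooled summit 4521 bp upstream with a signal of 12.4 (rank 11788), matched by a replicate 1 peak of 6.38 (rank 25203) and none in replicate 2. The strongest summit of replicate 2 in the window had a signal of 8.72 (rank 4955), 2997 bp upstream and within 250 bp of the non-coding gene C08C3.11, and had no pooled summit. The 3 lists thus did not place a summit of egl-5 at one common position.

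mab-5, php-3 and nob-1 had no pooled summit at all. mab-5, the gene of the posterior body, had its strongest replicate 1 summit in an intron (10.3, rank 7115) and its strongest replicate 2 summit in a coding exon (5.72, rank 15662). php-3 and nob-1 are the posterior-most Hox genes, of the Abdominal-B class, required for posterior embryonic development, and lie 236 bp apart. Their windows overlap, so the 2 strongest replicate 2 summits, 7.77 (rank 7122) and 7.50 (rank 7893), were counted for both, and both lay in an intron of nob-1, upstream of its internal 5′ end. In replicate 1 the strongest summit at php-3 was 7.71 (rank 16666) inside the gene and at nob-1 9.32 (rank 9852), 2688 bp upstream. Between the 3′ end of php-3 and the 5′ end of nob-1, a stretch of 10.1 kb, there were 2 summits in replicate 1 and 3 in replicate 2.

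**Figure D3:**
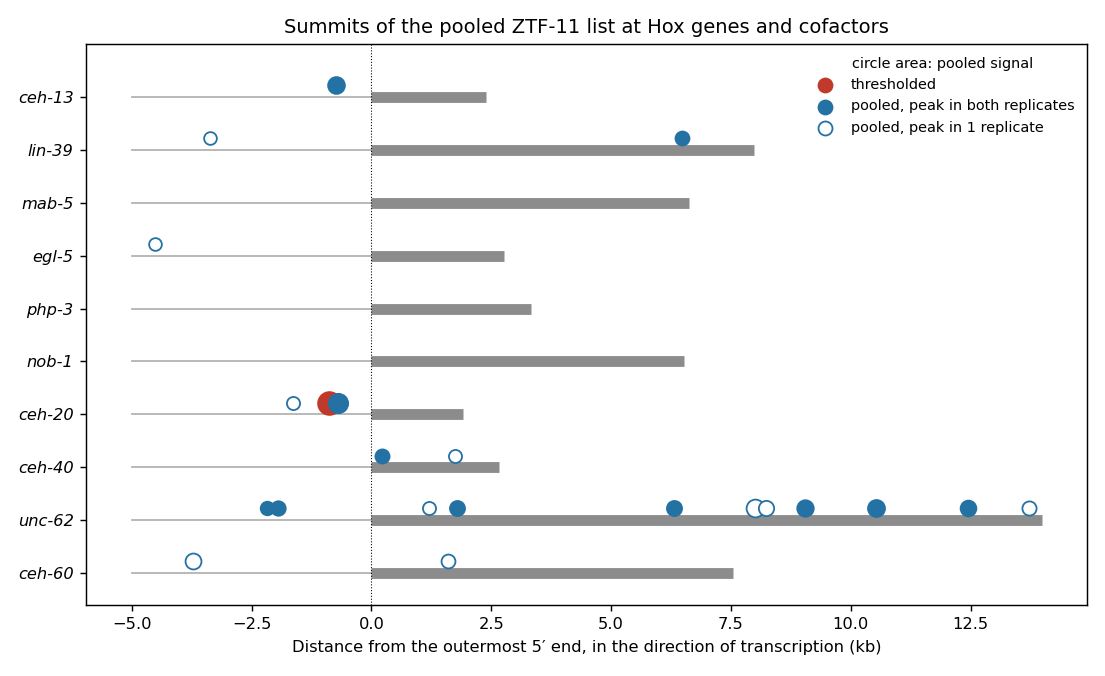
Summits of the pooled list in the gene windows of the 10 genes, by distance from the outermost 5′ end in kb. Grey bars are genes, circle area is the pooled signal, red is the thresholded list, filled blue has a peak in both replicates and open blue in 1 replicate. The red circle at ceh-20 (39.7) is the largest, unc-62 has 11 circles, and mab-5, php-3 and nob-1 have none.

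By position in the genome, lin-39, ceh-13, mab-5 and egl-5 form a loose cluster on chromosome III. It spans 289 kb from the 3′ end of lin-39 to the 3′ end of egl-5 and contains 39 other protein-coding genes. The gaps were 19.0 kb between lin-39 and ceh-13, 219 kb between ceh-13 and mab-5, and 30.9 kb between mab-5 and egl-5. The whole span held 44 pooled summits, or 15.3 per 100 kb, against 13.7 per 100 kb over chromosome III. Of these, 38 lay between ceh-13 and mab-5, which is 17.4 per 100 kb. Many of the 38 lay inside a single gene, ncl-1, which is not a Hox gene. For the summits at 7558155 (17.9, rank 3638) and 7558900 (12.9, rank 10442) the nearest protein-coding 5′ end was that of ceh-13. Both lay beyond its 3′ end, outside its gene window, and had peaks in both replicates.

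Between lin-39 and ceh-13 there were 3 pooled summits, the strongest of them the ceh-13 promoter peak, and between mab-5 and egl-5 there were 2, with signals up to 15.2. The single thresholded summit of the cluster, at 7659608 with a signal of 51.4 (rank 294), lay between ceh-13 and mab-5, 131 kb from the 3′ end of lin-39. Its nearest protein-coding 5′ end was that of lido-18, 2670 bp away, and the non-coding gene C18H2.7 lay 195 bp from it. The replicates had 26.5 (rank 373) and 24.4 (rank 321) there. No thresholded summit lay in the stretch from php-3 to nob-1.

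Counted once where windows overlap, the 10 gene windows covered 101 kb and held 22 pooled summits, or 21.8 per 100 kb, against 12 per 100 kb over the nuclear genome. The 4 cofactor genes had 18 of them, 39.1 per 100 kb, and the 6 Hox genes 4, or 7.29 per 100 kb. Of the 22, 11 were at unc-62, and without it the other 9 genes had 13.4 per 100 kb, close to the genome. The genome values are taken over all sequence and not over gene windows set by the same rule, so they are not a like background. The 3 cofactor genes without unc-62 had 7 pooled summits in 27.1 kb, or 25.8 per 100 kb, below the value for all 4 and above that of the Hox genes. The difference between cofactors and Hox genes was not tested. Replicate 1 had 47.7 summits per 100 kb at cofactor genes and 38.3 at Hox genes, and replicate 2 had 60.7 and 27.3, against 29.9 over the genome in each. Without unc-62 the cofactor genes had 33.2 in each replicate, which was below the Hox genes in replicate 1 and above them in replicate 2.

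Of the 22 pooled summits 12 (54.5%, 95% Wilson interval 34.7 to 73.1, counting error only) had an overlapping peak in both replicate lists, where 58.8% of all nuclear pooled peaks did. The interval treats summits as independent, which they were not, since 11 lay at unc-62. The 2 strong ceh-20 summits also overlapped the same replicate peaks, as did the 2 summits upstream of unc-62. A peak in replicate 1 was present for 18 (81.8%) and in replicate 2 for 16 (72.7%), beside 84.8% and 73.0% of all nuclear pooled peaks. Each of the 22 had a peak in at least 1 replicate, as did all but 123 of the 11998 nuclear pooled peaks. Apart from the 2 strongest at ceh-20, the member summits had pooled signals from 12.4 to 24.3, ranks from 1497 to 11893 and −log10 q-values from 0.019 to 0.7, all below the 1.87 minimum of the thresholded list. By feature 8 were intergenic (36.4%), 8 intronic (36.4%) and 3 in coding exons (13.6%), beside 39.8%, 32.8% and 16.9% of all nuclear pooled summits. Another 2 were in a 5′ UTR (9.09%) and 1 in a 3′ UTR (4.55%), beside 2.47% and 3.78%. These UTR summits were all at unc-62.

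**Figure D4:**
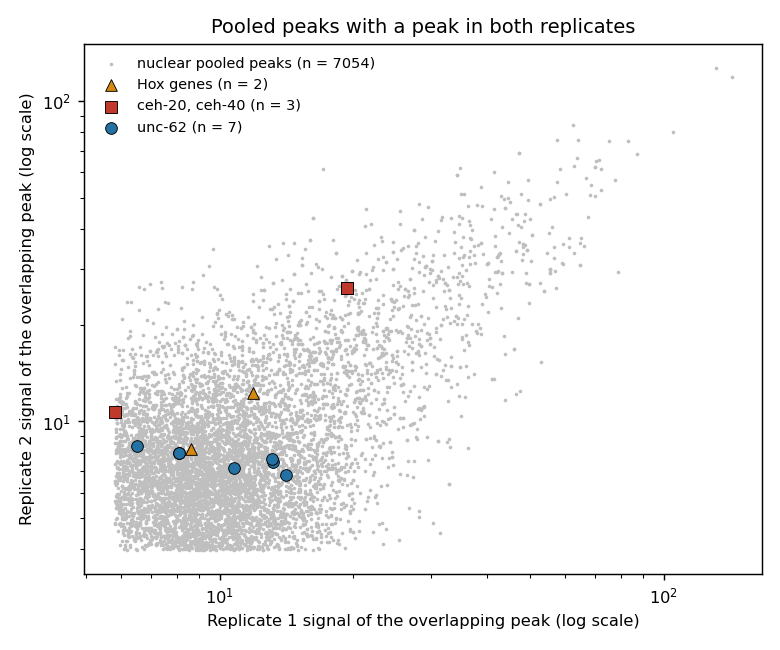
Signal in replicate 1 against replicate 2, both on log scales, for pooled peaks with an overlapping peak in both replicates. Grey points are all 7054 such nuclear peaks and coloured points those in the windows of Hox genes, ceh-20 or ceh-40, and unc-62. The ceh-20 point, at 19.4 and 26.1, stands for both strong ceh-20 summits, which overlap the same replicate peaks, and the other coloured points lie between 5.82 and 14.1 in replicate 1 and between 6.82 and 12.3 in replicate 2.

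Around the 22 member summits, within 50 bp on each side, AAGTT occurred at 7 (31.8%) and at 27.7% of all nuclear pooled peaks. AAAGTTT occurred at 1 (4.55%, against 6.50%), at the weak ceh-20 summit 1635 bp upstream. TGATNNAT, the pattern of Hox proteins with PBC partners, occurred at 4 (18.2%, 95% Wilson interval 7.31 to 38.5, counting error only) against 6.14%. These 4 were the ceh-13 promoter summit and the unc-62 summits at 4507983, 4509902 and 4511186. The interval treats the 22 summits as independent, although 11 of them lay at unc-62. It concerns 1 of 6 patterns looked at and is no test of enrichment. TGACAG occurred at 1 (4.55%, against 3.50%), TTTGAA or TTCGAA at 5 (22.7%, against 27.6%) and GAGAG at 6 (27.3%, against 21.2%). Over the thresholded peaks the shares were 8.31% for AAGTT and 47.0% for GAGAG, and the thresholded ceh-20 summit had neither. A match is a description of the sequence and shows no binding by any factor.

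Beyond these 10 genes, a list of 15 regulators of Hox genes had 5 members with a thresholded summit in the promoter window, where 2.65% of all genes had one. In the gene window it was the same 5, against 5.98%. set-16, a homologue of the MLL histone methyltransferases, had a signal of 84.4 (rank 88), with 43.2 in replicate 1 and 40.5 in replicate 2, and shared the summit with drr-2, whose 5′ end was nearer. sor-1, a Polycomb-like repressor of Hox genes, had 73.9 (rank 128; replicates 33.2 and 43.2). The trithorax-type gene lin-59 had 41.1 (rank 474; 20.3 and 31.9).

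egl-27, an MTA homologue, had 40.1 (rank 497) with 24.5 and 14.5 in the replicates. ash-2, a trithorax-type gene, had 36.6 (rank 610; 22.7 and 17.0) at a summit also in the window of Y17G7B.20, whose 5′ end was nearer. The posterior regulators pal-1, the caudal homologue, and vab-7, the even-skipped homologue, were not among them. pal-1 had no pooled summit in its gene window, and vab-7 had 1, with a signal of 23.9 (rank 1547) in an intron. The pooled list put a promoter summit at 10 of the 15, against 22.4% of all genes. The 15 genes were not set beside chromatin regulator genes in general, so these counts cannot be read as a trait of Hox regulation.

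None of 12 known target genes of Hox, PBC and Meis proteins had a thresholded summit in the gene window, where 5.98% of all genes had one, so a count of 0 among so few genes does not set them apart. The pooled list had a summit in the gene window of 7 of the 12, against 55.2% of all genes, and in the promoter window of 2, egl-18 and psa-3, against 22.4%. egl-18, a GATA factor gene downstream of lin-39, had 14 pooled summits in its gene window, the strongest in an intron 890 bp from a 5′ end with a signal of 24.4 (rank 1478). That count was not set beside windows of the same length, and egl-27, of the regulators, had 12 pooled summits. psa-3, a Meis-related gene downstream of nob-1 and ceh-20, had 3, the strongest 2175 bp upstream with a signal of 16.6 (rank 4583) and within 250 bp of the non-coding gene F39D8.6. These lists were chosen with earlier results of these data known, and the counts were not tested.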

How the data were processed

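ChIP-seq peak lists of 2 replicates were used as the authors deposited them, on ce11. Per the labels' listing of files, each replicate list came from that library and a file also behind the control-normalized tracks, taken here as the control, the pooled list from both libraries, and the thresholded list from these 3 by the irreproducible discovery rate. For the aligner, the peak caller and its cutoff the information is not given in the sources used here. Column 7 is the deposited signal and column 9 the deposited −log10 q-value, by the file format. The ce10 lists were not used. No list holds read counts, so the depth behind a peak is unknown.

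Gene models were Ensembl release 115 for WBcel235. C. elegans 5′ ends can be trans-splice sites, so annotated starts may lie inside the transcription unit. Summits were assigned with Python 3.11.15, pandas 2.3.3 and numpy 2.4.6, Wilson intervals came from scipy 1.17.1, and the counting was tested on simulated data. Where several peaks of a replicate overlapped a pooled peak by at least 1 bp, the strongest was taken. A feature was given in the order coding exon, 5′ UTR, 3′ UTR, intron, over all transcripts. No p-values were computed. The members, gene lists, patterns and the rule for naming genes (members, genes at their summits, pathway genes with a thresholded promoter summit, and the 3 genes most like ceh-20) were chosen with earlier results of these data known. pal-1, vab-7, egl-18 and psa-3 were named outside this rule, after their values were seen. Replicates were labelled biological, and nothing more is stated of their origin.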

Additional observations from a re-analysis of the deposited data

How the results depend on the processing

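In 17 of 28 alternatives the counts and densities stayed within 1.5 times the reported value, or the share inside its interval. This rule is lenient. A rise from 7 of 10 genes could not leave the range, a change of gene at the same count was not registered, and the intervals are wide. Leaving out a replicate meant taking the strongest peaks of the other, as many as the list in question holds. For the 1 gene with a thresholded summit in the gene window, a stricter set, without the weaker peaks below the list's median signal, left 0, and leaving out a replicate gave 1 in each case, which was ceh-20 without replicate 1 and unc-62 without replicate 2. In the promoter window the count of 1 became 0 with the stricter set, 0 with a narrower window (500 bp upstream, 100 bp downstream), and between 0 and 1 when a replicate was left out, because ceh-20 ranked 787 in replicate 1, outside its 721 strongest peaks. The 7 genes with a pooled summit in the gene window became 4 with the stricter set and 8 to 9 when a replicate was left out. The 3 genes with a pooled promoter summit became 1 with the narrower window, and 4 to 6 when a replicate was left out. The 54.5% of summits with a peak in both replicates became 22.7% when summits had to lie within 100 bp (36.2% over all nuclear pooled peaks) and 31.8% with only the 12024 strongest peaks of each replicate (26.9% over all). Leaving out unc-62, an alternative chosen after seeing the data, lowered the pooled density from 21.8 to 13.4 summits per 100 kb over all 10 genes and from 39.1 to 25.8 over the cofactor genes. Of 12 alternatives for motif shares 8 stayed inside the interval of the reported share. The TGATNNAT share of 18.2% was 4.55% within 25 bp and 27.3% within 100 bp. Over all nuclear pooled peaks it was 6.14% within 50 bp, 2.83% within 25 bp and 12.9% within 100 bp. The causes were not tested. No paired analysis was possible because the design has a single group. With no read depth in the files, the strength of evidence behind a weak peak, or behind a window without one, is unknown.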
